A study of Mus musculus with 12 samples.

Results

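Forkhead (Fox) genes encode transcription factors that bind DNA through a winged-helix domain. The 9 genes described here, Foxd1, Foxd2, Foxf1, Foxf2, Foxl1, Foxc1, Foxc2, Foxp1 and Foxo1, were taken as a named list because several of them are known targets of Hedgehog signalling in mesenchyme. The list was chosen with earlier results of these data known. All 9 were found by mouse symbol among the 25887 genes of the deposited tables. A further 35 forkhead genes are in the tables. RNA was sequenced from dermal papilla cells, the mesenchyme that the hair bulb encloses, sorted by FACS from 4 groups of mice with 3 libraries each.

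The first group is Smo* at postnatal day 20 (P20), from female mice in telogen, when the follicle rests. It is set against wild-type (WT) females of the same age and stage. The third group is Smo* at P28, from males labelled anagen I-III, the early growth stage, and it is set against WT males at P28 labelled anagen VI, the full growth stage. Smo* is a gain-of-function form of Smo, a membrane protein that relays Hedgehog signals, and the labels restrict it to the dermal papilla without naming the driver. Genotype and growth stage differ together at P28, and age, stage and sex differ together between P20 and P28. Each library's title holds a number of its own, some of them consecutive between a Smo* and a WT library, and the labels do not say whether it marks an animal. The p-values rest only on the spread among these libraries, which may be technical.

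In outline, Hedgehog ligand bound by the receptor Ptch1 releases Smo, which turns on the Gli transcription factors. In the mesenchyme of gut, lung and palate Gli factors are known to raise Foxf1, Foxf2 and Foxl1, and Foxc2 follows Hedgehog in the sclerotome. Foxd1 marks stromal progenitors of the kidney and dermal mesenchyme, and Foxd2 is expressed in paraxial mesoderm. Foxp1 and Foxo1 belong to other branches of the family: Foxp1 is a repressor known in hair follicle stem cells, and Foxo1 is held out of the nucleus by insulin and AKT signalling.

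The libraries held 36323058 to 48926831 reads on genes. P28 Smo* replicate 3 stood apart, with 15453 genes with a read against at least 17337 in the others, and with Spearman correlations of 0.966 and 0.970 with its replicates against 0.981 or more in the remaining replicate pairs. Smo averaged 7074 ± 633 normalized counts in P20 Smo* and 5099.8 ± 108 in P20 WT, and 7911 ± 679 in P28 Smo* and 5762 ± 364 in P28 WT (SD, n = 3 each). Of 14 dermal papilla markers, none was at 0 in all libraries of a group, and their summed level was 83982 to 109311 in P20 Smo*, 60098 to 65922 in P20 WT, 55476 to 336264 in P28 Smo* and 406123 to 501891 in P28 WT. The lowest P28 Smo* sum was that of replicate 3. At P28 limma called 5 of these markers lower in Smo*, among them Corin (log2 fold change -4.65), and 1 higher, Sox18 (1.93). At P20 it called 1 higher, Sox18 (3.14), and 0 lower. Counted in both directions, 9 were at an unadjusted p under 0.05, and edgeR called 1 and DESeq2 5. Of the 14, 8 had a log2 fold change above 0 at P20. Of 8 dermal fibroblast markers limma called 1 at P20, Dpt, lower in Smo* (-0.80), with 6 at an unadjusted p under 0.05. Their summed level was 166613 to 212818 in P20 Smo* and 235557 to 281554 in P20 WT. At P28 it was 219702 to 287572 in Smo* and 149528 to 280707 in WT. The part of papilla and fibroblast content in the values of the members was not tested.

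The coding sequence of the recognition helix, the part of the winged helix that lies in the major groove of DNA, is shown for 7 members because it is the stretch through which these proteins read DNA. Capitals mark bases that differ from Foxd1, each run is 33 bases long, 5′ to 3′ on the coding strand, and the sequences are from GENCODE transcripts of GRCm38.
Foxd1: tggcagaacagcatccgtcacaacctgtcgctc
Foxd2: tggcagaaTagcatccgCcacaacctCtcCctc
Foxf1: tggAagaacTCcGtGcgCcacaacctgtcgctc
Foxf2: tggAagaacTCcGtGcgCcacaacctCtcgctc
Foxl1: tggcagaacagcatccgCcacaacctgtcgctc
Foxc1: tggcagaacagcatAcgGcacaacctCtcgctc
Foxc2: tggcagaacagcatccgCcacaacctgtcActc
Foxl1 differed from Foxd1 at 1 base, Foxc2 at 2, Foxc1 at 3 and Foxd2 at 4, while Foxf1 and Foxf2 differed at 6 and 7. Over whole transcripts the longest identical run between a pair of members was 53 bases, between Foxc1 and Foxc2, followed by 47 bases between Foxd1 and Foxd2 and 41 between Foxf1 and Foxf2. Reads that fall within such a stretch could belong to either copy, and the labels state no read length.

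Among the members, 5 lie in a pair of gene clusters. On mouse chromosome 8, Foxf1 (121084386 to 121088144), Foxc2 (121116171 to 121118895) and Foxl1 (121127940 to 121130644) sit on the forward strand within 46.3 kb, with Mthfsd, a gene of another family, between Foxf1 and Foxc2. On chromosome 13, Foxf2 (31625816 to 31631403) and Foxc1 (31806633 to 31812476) lie 175.2 kb apart, and Foxd1 (98354242 to 98359305) lies far from them. Foxd2 is on chromosome 4 (114906282 to 114908873, reverse strand), Foxp1 on chromosome 6 (98925338 to 99522721, reverse strand) and Foxo1 on chromosome 3 (52268336 to 52353221). All positions are GRCm38. An exon of Foxo1 overlaps the antisense gene Gm20402, Foxf1 and Foxf2 each overlap a miRNA gene on the other strand, and an exon of Foxp1 overlaps Gm20696 on its own strand. Gm20696 averaged 19.8 normalized counts in P20 Smo*, 18.3 in P20 WT, 19.8 in P28 Smo* and 54.1 in P28 WT. The sources used here do not give the strand setting of the counting, and the counts of these members may hold or lose reads of the overlapping genes.

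Levels can be compared between genes per length, as normalized counts per kb of exon. In all 4 groups Foxo1 was the highest, with 394 ± 67.2 per kb in P20 Smo* and 497 ± 66.1 in P20 WT, and with 419 ± 74.1 in P28 Smo* and 344 ± 61.3 in P28 WT (SD, n = 3). In Smo* papilla Foxd2 and Foxd1 came next, at 260.4 and 143 per kb at P20 and 339 and 198 at P28, and the ranges of Foxo1 and Foxd2 overlapped at both ages. In WT papilla Foxd1, Foxp1 and Foxd2 followed Foxo1 at P20 with 55.5, 42.7 and 37.7 per kb and overlapping ranges. In P28 WT the order was Foxp1, Foxd2 and Foxd1 with 56.5, 49.8 and 22.9 per kb, and Foxd1 lay below Foxd2 without overlap. The lowest places were held by Foxf2 and Foxl1 in every group, at 9.88 and 5.80 per kb in P20 Smo*, 10.4 and 2.76 in P20 WT, 11.2 and 11.01 in P28 Smo* and 1.93 and 2.37 in P28 WT.

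**Figure D1:**
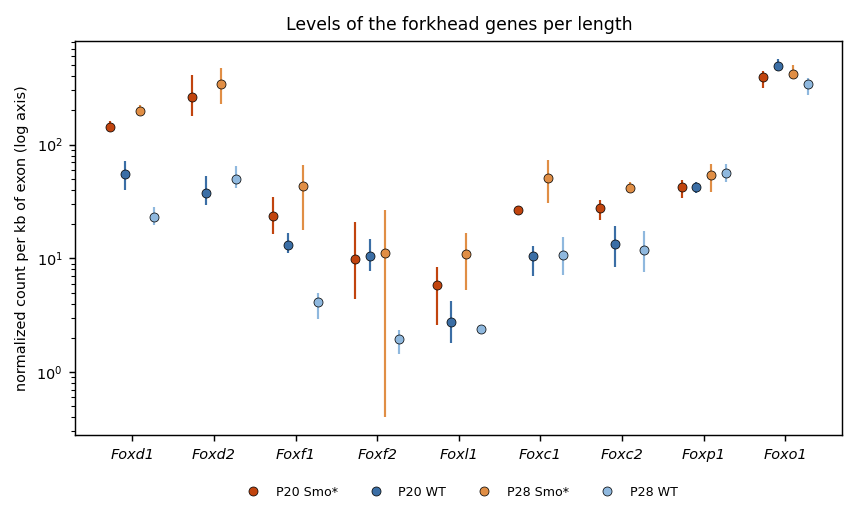
Level of each forkhead gene as normalized count per kb of exon (log axis); points are means and vertical lines run from the lowest to the highest of 3 libraries, for P20 Smo*, P20 WT, P28 Smo* and P28 WT. Foxo1 has the highest mean in every group, and Foxd2 and Foxd1 come next in Smo* papilla, at 260.4 and 143 per kb at P20.

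Foxd1 and Foxd2 were the members that limma called higher in Smo* papilla at both ages. Foxc1 and Foxc2 were also higher without overlap at both ages but were not called at P20. Foxd1 had 679.6, 672 and 819 normalized counts in the P20 Smo* libraries, against 203, 276 and 363 in P20 WT. The P28 libraries had 1126, 914 and 964 in Smo*, against 103, 144 and 100.4 in WT. For Foxd1, all Smo* libraries lay above all WT libraries of either age. At P20 the log2 fold change was 1.40 (SE 0.22, limma adjusted p = 0.0354), and at P28 it was 3.12 (SE 0.19, limma adjusted p = 0.000140). A ratio of means puts this at 2.58-fold at P20 and 8.65-fold at P28. In bulk RNA such a difference cannot be told apart from a change in the share of cells that express the gene.

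Foxd2 had 497, 1069 and 459 normalized counts in P20 Smo*, against 78.0, 77.0 and 138 in P20 WT. Its P28 values were 594, 823 and 1216 in Smo*, against 111, 107 and 169 in WT. The groups did not overlap at either age, and the Smo* libraries varied more than those of Foxd1. The log2 fold change was 2.72 at P20 (SE 0.36, limma adjusted p = 0.0222) and 2.73 at P28 (SE 0.30, limma adjusted p = 0.00153), or 6.91-fold and 6.80-fold as ratios of means.

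The P28 calls of both genes held without any single library. At P20 they did not: the Foxd1 call ended without Smo* replicate 1, 2 or 3 (limma adjusted p = 0.0634, 0.125 and 0.0660) and without WT replicate 1 or 2 (0.0633 and 0.140), with log2 fold changes of 1.18 to 1.60 when 1 library was left out. The Foxd2 call ended without Smo* replicate 2 (0.0540), WT replicate 1 (0.0656) or WT replicate 2 (0.0974), with log2 fold changes of 2.33 to 2.99. The authors' deposited table called both genes at both ages.

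**Figure D2:**
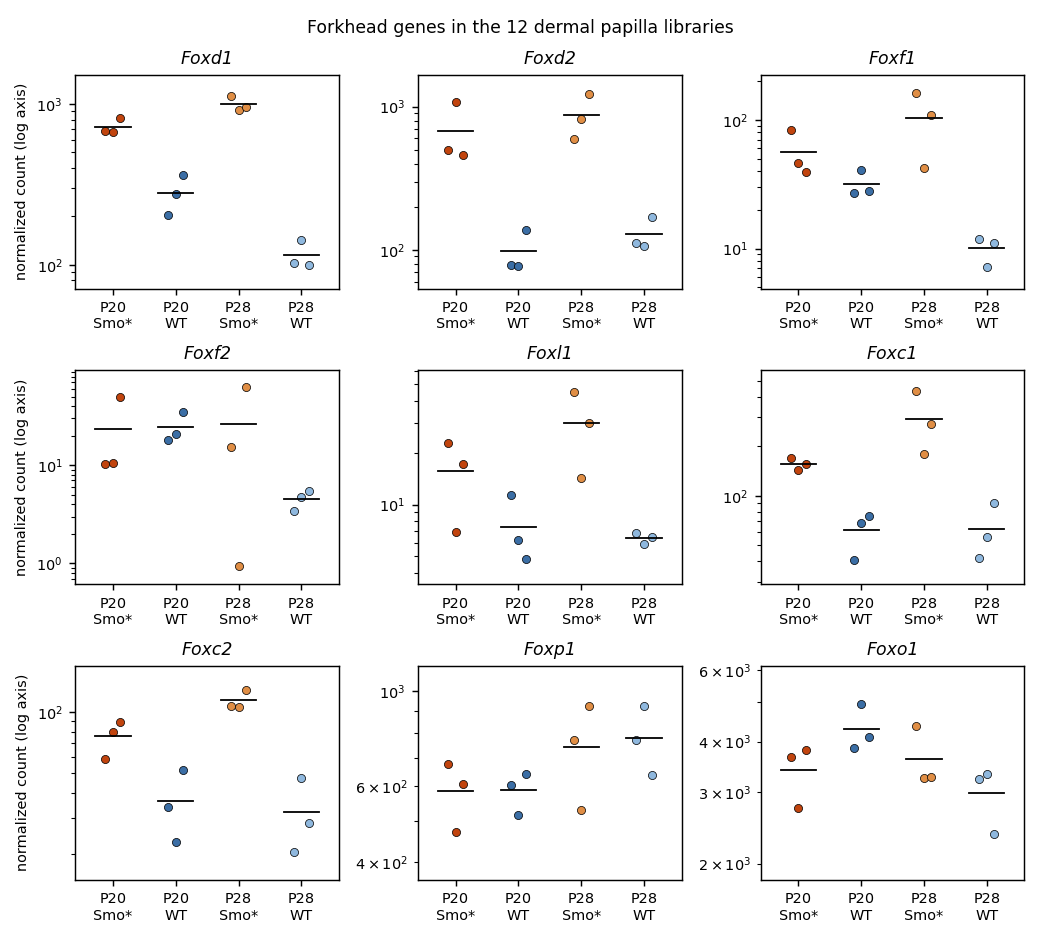
Normalized count of each of the 9 forkhead genes in each of the 12 libraries (log axis), grouped as P20 Smo*, P20 WT, P28 Smo* and P28 WT; points are libraries and horizontal lines are means of 3. Foxd1, Foxd2, Foxc1 and Foxc2 lie higher in Smo* than in WT without overlap at both ages, Foxf1 and Foxl1 do so at P28, and Foxp1 and Foxf2 overlap at both.

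In all, at P20 limma called 2 of the 9 members, both higher in Smo*, where 0.696% of 14645 tested genes were called in either direction and 0.485% were called higher. The Smo* and WT libraries did not overlap for 4 members that were higher (Foxd1, Foxd2, Foxc1 and Foxc2) and 1 that was lower (Foxo1), where 8.04% and 8.34% of tested genes did so, or 16.4% in either direction. At P28 limma called 5 of 9, all higher in Smo* (Foxd1, Foxd2, Foxf1, Foxc1 and Foxc2), where 8.9% of 14757 tested genes were called, 4.05% higher and 4.85% lower. The same 5 were higher without overlap and 0 lower, where 15.6% and 17.8% of tested genes were. Foxl1 was also higher without overlap, but it passed the filter only through its Smo* group. The members were chosen with earlier results of these data known, so setting them against all genes is not an independent comparison. All 9 passed the filter of a mean of at least 10 normalized counts at both ages, but Foxl1 averaged 7.46 in P20 WT and 6.40 in P28 WT and Foxf2 averaged 4.56 in P28 WT, so these passed through their other group.

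Among the FoxF and FoxL1 genes, only Foxf1 was called, at P28. Foxf1, which patterns the mesenchyme of lung and gut, had 83.7, 46.2 and 39.2 normalized counts in P20 Smo*, against 27.1, 40.6 and 27.9 in P20 WT. The P20 groups overlapped (log2 fold change 0.75, SE 0.38, limma adjusted p = 0.514). In the P28 libraries it stood at 161, 42.7 and 109 in Smo*, against 11.9, 7.13 and 11.1 in WT, which rest on 6 to 14 reads per WT library. The P28 groups did not overlap, and the log2 fold change was 3.09 (SE 0.57, limma adjusted p = 0.0155). The call ended without Smo* replicate 1 (limma adjusted p = 0.0636) or WT replicate 2 or 3 (0.0637 and 0.0553), with log2 fold changes of 2.68 to 3.62 when 1 library was left out.

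Foxl1, a winged-helix factor of gut mesenchyme that marks telocytes there, was near the limit of detection. It had 22.7, 6.97 and 17.3 normalized counts in P20 Smo*, against 11.3, 6.24 and 4.82 in P20 WT, and the groups overlapped. At P28 it had 45.2, 14.2 and 29.9 in Smo*, against 6.83, 5.94 and 6.45 in WT, or 15 to 41 reads against 5 to 8. Every P28 Smo* library lay above every P28 WT library, but limma did not call the difference (log2 fold change 1.92, SE 0.65, 95% interval 0.42 to 3.41, adjusted p = 0.111). The authors' deposited table gives it an adjusted p of 0.00942 and a log2 fold change of 1.44, turned to Smo* over WT, and DESeq2 on the recovered reads gave 0.0266.

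Foxf2, the paralog of Foxf1 with roles in palate, gut and pericytes, behaved unevenly between libraries of one group. It had 10.3, 10.5 and 49.3 normalized counts in P20 Smo*, against 18.1, 20.8 and 34.7 in P20 WT. At P28 it had 15.4, 0.948 and 63.1 in Smo*, against 3.41, 4.75 and 5.53 in WT, so that the Smo* libraries lay on both sides of the WT ones. The 0.948 stands for 1 read (95% Poisson interval 0.0253 to 5.57 reads, counting error only). Neither comparison was called (log2 fold change -0.40, 95% interval -1.86 to 1.07, at P20, and 1.21, -1.72 to 4.14, at P28, limma adjusted p = 0.876 and 0.582). The high P28 Smo* value was that of replicate 3, the library that stood apart. Without it the mean of Foxf2 over the other P28 libraries fell below 10, and no test was made. In each Smo* group the library numbered replicate 3 had the highest summed level of 5 adipocyte markers. The sum was 5117 normalized counts among 362 to 5117 in P28 Smo* and 2446 among 382 to 2446 in P20 Smo*. The replicate number does not link libraries of different groups. The sum was 416 to 475 in P28 WT, with Cidec and Lep at 0, and 253 to 964 in P20 WT. At P28 limma called 0 of the 4 adipocyte markers tested (3 at an unadjusted p under 0.05, 0 by edgeR and 1 by DESeq2). Replicate 3 of each Smo* group also had the highest sum of 5 pericyte markers, 12496 among 10246 to 12496 at P28 and 18850 among 12138 to 18850 at P20. The highest Smo* sums of 8 dermal fibroblast markers were in the same libraries, 287572 at P28 and 212818 at P20. The part of any of these cells in the Foxf2 values was not tested.

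The FoxC genes were called at P28. Foxc1, which is needed for skull, eye and vessel development and is also expressed in hair follicle stem cells, had 169, 144 and 157 normalized counts in P20 Smo*, against 40.7, 68.7 and 75.2 in P20 WT. Its P28 values were 432, 180.2 and 274 in Smo*, against 41.8, 55.8 and 90.2 in WT. Its groups did not overlap at either age, with a log2 fold change of 1.38 at P20 (SE 0.28, limma adjusted p = 0.0829), which missed the threshold, and 2.20 at P28 (SE 0.40, limma adjusted p = 0.0146). The P20 difference passed in the authors' deposited table (adjusted p = 0.0193) and by DESeq2 on the recovered reads (0.00111). The P28 call ended without WT replicate 2 (limma adjusted p = 0.0642).

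Foxc2, which acts in sclerotome and lymphatic vessels, had 58.9, 79.3 and 89.4 normalized counts in P20 Smo*, against 33.9, 22.9 and 52.0 in P20 WT. At P28 it had 107, 106 and 128 in Smo*, against 20.5, 47.5 and 28.5 in WT. Smo* lay above WT in every library at both ages. The log2 fold change was 1.10 at P20 (SE 0.36, limma adjusted p = 0.285), not called, and 1.87 at P28 (SE 0.38, limma adjusted p = 0.0217). That call ended in more of the single-library omissions than the other P28 calls, without Smo* replicate 1 or 2 (limma adjusted p = 0.0627 and 0.0508) and without WT replicate 1 or 3 (0.0603 and 0.0824).

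The remaining members did not pass the test at either age. Foxp1 had 675, 471 and 607 normalized counts in P20 Smo*, against 605, 515 and 642 in P20 WT, and 769, 529 and 922 in P28 Smo*, against 768, 922 and 639 in P28 WT. The groups overlapped throughout, and the log2 fold changes were -0.02 at P20 (95% interval -0.40 to 0.37, limma adjusted p = 0.985) and -0.09 at P28 (-0.61 to 0.43, limma adjusted p = 0.835). Foxo1 had 3669.6, 2746 and 3821 in P20 Smo*, against 3853, 4948 and 4112 in P20 WT. At P28 it had 4373, 3254 and 3268 in Smo*, against 3242, 3328 and 2368 in WT. Its log2 fold change was -0.34 at P20 (95% interval -0.70 to 0.02, limma adjusted p = 0.467), without overlap between the groups, and 0.29 at P28 (-0.12 to 0.70, limma adjusted p = 0.339), with overlap.

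**Figure D3:**
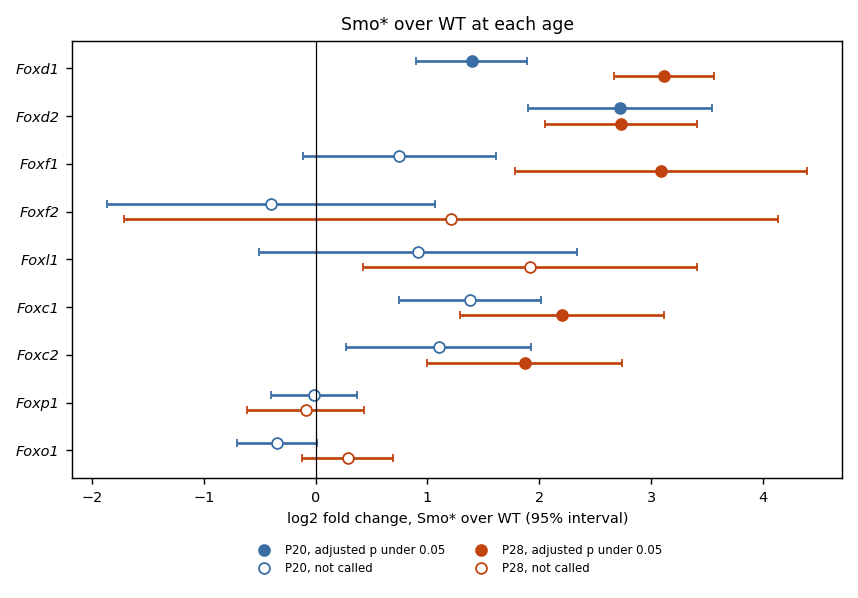
Log2 fold change of Smo* over WT for each forkhead gene at P20 and at P28, with 95% intervals from limma (3 libraries against 3); filled points passed an adjusted p of 0.05 and open points did not. Foxd1 is at 1.40 at P20 and 3.12 at P28, while Foxd2 is at 2.72 and 2.73.

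Foxd1 was the member for which a difference between the ages in Smo* over WT was called. The interaction term, Smo* over WT at P28 minus the same at P20, was 1.72 on the log2 scale for Foxd1 (SE 0.30, limma adjusted p = 0.00857), where 4.72% of 14790 genes were called, 1.89% with a higher and 2.83% with a lower Smo* over WT value at P28. The call held with each of the 12 libraries left out, with values of 1.51 to 1.93. For Foxd2 the same difference was 0.01 (95% interval -1.11 to 1.12, limma adjusted p = 0.996). Foxf1 had a value of 2.34 (SE 0.69, limma adjusted p = 0.0731), which missed the threshold but passed by DESeq2 (0.0129) and without P28 Smo* replicate 2 (0.0179). The other 6 members were not called, at -0.07 to 1.61.

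Within WT papilla, 3 members were lower at P28 than at P20, where 25.4% of 14790 tested genes were called and 11.9% were called lower. Foxd1 averaged 116 ± 24.2 normalized counts in P28 WT and 281 ± 80.0 in P20 WT (log2 fold change -1.25, SE 0.21, limma adjusted p = 0.00132). Foxf1 averaged 10.04 ± 2.56 in P28 WT and 31.9 ± 7.54 in P20 WT (-1.58, SE 0.49, limma adjusted p = 0.0319). Foxo1 averaged 2979.6 ± 531 in P28 WT and 4304 ± 573 in P20 WT (-0.54, SE 0.18, limma adjusted p = 0.0424). The Foxd1 call held without any single library. The Foxf1 call ended for 5 of 6 libraries left out, all but P28 WT replicate 1 (limma adjusted p = 0.0556 to 0.109), and the Foxo1 call for 5 of 6, all but P28 WT replicate 2 (0.0510 to 0.179). The P28 and P20 libraries of WT did not overlap for these 3, all lower at P28. Of tested genes 21.6% were lower without overlap, 23.6% higher and 45.1% either. Foxf2 was also lower without overlap, but its P28 WT mean was below 10. That mean rests on 4 to 6 reads per library, and Foxf2 passed the filter through other groups. Foxf2 averaged 4.56 ± 1.07 in P28 WT and 24.5 ± 8.90 in P20 WT, and its call depended on the fit (limma adjusted p = 0.150 in the 12-library fit and 0.0181 with the 6 WT libraries alone). Cell type markers moved in the same comparison: 10 of 14 dermal papilla markers were higher in P28 WT, among them Corin (log2 fold change 7.11), and 0 lower. Of 7 dermal sheath and smooth muscle markers 4 were higher (Myl9, Itga8, Tagln and Acta2, 1.23 to 1.61) and 1 lower, and of 5 pericyte markers 2 were lower, Kcnj8 (-1.35) and Cspg4 (-1.10). Summed levels of the sheath markers were 19049.9 to 23348 normalized counts in P28 WT and 8529 to 18918 in P20 WT, and those of the pericyte markers were 10713 to 12253 in P28 WT and 11060.1 to 19995 in P20 WT. Their part in the stage values of the members was not tested.

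Within Smo* papilla limma called 0 of the 9 members between P28 and P20, where 3.46% of 14790 tested genes were called, 1.98% higher and 1.47% lower. At an unadjusted p under 0.05 there were 2, Foxd1 and Foxc1, and edgeR and DESeq2 called 0. The groups did not overlap for Foxd1, Foxc1 and Foxc2, higher at P28, where 12.2% of tested genes were higher without overlap, 12.1% lower and 24.4% either. Foxd1 averaged 1001 ± 111 normalized counts in P28 Smo* and 724 ± 82.4 in P20 Smo* (log2 fold change 0.47, 95% interval 0.01 to 0.93, limma adjusted p = 0.214). Foxc1 averaged 295 ± 127 in P28 Smo* and 157 ± 12.8 in P20 Smo* (0.82, 95% interval 0.04 to 1.61, limma adjusted p = 0.200). The stage comparisons use the same libraries as those between genotypes, so their values are not separate evidence.

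**Figure D4:**
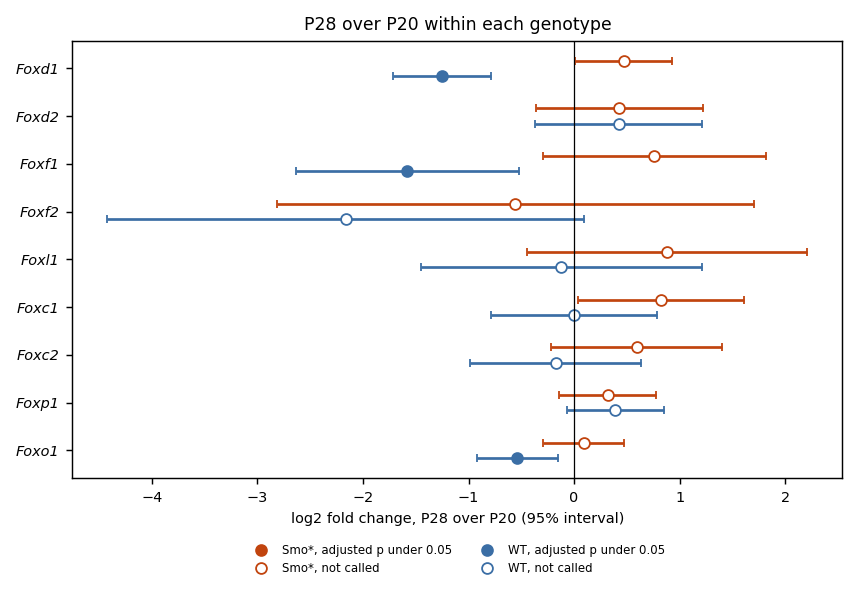
Log2 fold change of P28 over P20 within Smo* and within WT papilla for each forkhead gene, with 95% intervals from 1 limma fit of 12 libraries; filled points passed an adjusted p of 0.05. Foxd1 is at 0.47 in Smo* and -1.25 in WT, and Foxd2 is at 0.43 and 0.42.

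The ratio of the FoxD paralogs is given by its range over libraries, without a test. Per kb of exon, Foxd1 stood at 0.322 to 0.913 of Foxd2 in P20 Smo* and at 1.34 to 1.83 of it in P20 WT, and at 0.406 to 0.971 in P28 Smo* and 0.303 to 0.688 in P28 WT. P20 WT was thus the group in which Foxd1 exceeded Foxd2 in each library. For Foxc1 over Foxc2 the ranges overlapped in all groups, from 0.818 to 1.34 in P20 Smo*, 0.560 to 1.40 in P20 WT, 0.791 to 1.88 in P28 Smo* and 0.548 to 1.47 in P28 WT.

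Of the nearest coding genes on each side, the closest tested ones outside the family were not called between Smo* and WT at either age. Mthfsd, which lies between Foxf1 and Foxc2, had log2 fold changes of 0.02 at P20 and -0.09 at P28 (limma adjusted p = 0.982 and 0.814). Gmds, 7.1 kb from Foxc1, had -0.16 and -0.17 (0.863 and 0.580). Btf3, 37.2 kb from Foxd1, had -0.09 and 0.02 (0.822 and 0.930). Irf8, of the interferon regulatory factor family, is the nearest coding gene below Foxf1 at 327.7 kb. Irf8 was lower in Smo* at P28 by 2.69 on the log2 scale (limma adjusted p = 0.000411). Foxq1 and Foxe3, the forkhead neighbours of Foxf2 and Foxd2, stayed below the filter in each comparison.

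The promoters of Foxd1, Foxd2 and Foxc1 are shown because these members were higher in every Smo* library at both ages and have an entry in the promoter table. Each runs from 250 bases before to 50 after the start of the gene, 5′ to 3′ on the gene's strand, from RefSeq on GRCm38.p6, with CG pairs in capitals.
Foxd1 (chr13:98353995-98354294, forward strand): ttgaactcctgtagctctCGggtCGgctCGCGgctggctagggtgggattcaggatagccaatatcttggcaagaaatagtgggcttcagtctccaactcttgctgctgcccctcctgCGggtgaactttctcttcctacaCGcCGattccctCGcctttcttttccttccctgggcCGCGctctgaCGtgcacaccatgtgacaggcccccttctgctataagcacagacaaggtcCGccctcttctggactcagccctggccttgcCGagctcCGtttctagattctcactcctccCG
Foxd2 (chr4:114908849-114909148, reverse strand): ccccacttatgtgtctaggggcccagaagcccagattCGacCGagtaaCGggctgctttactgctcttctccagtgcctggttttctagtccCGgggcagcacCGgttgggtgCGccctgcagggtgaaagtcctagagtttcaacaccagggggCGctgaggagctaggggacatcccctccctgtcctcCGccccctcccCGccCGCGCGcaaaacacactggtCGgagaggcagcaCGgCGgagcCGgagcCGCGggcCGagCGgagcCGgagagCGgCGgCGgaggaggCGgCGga
Foxc1 (chr13:31806396-31806695, forward strand): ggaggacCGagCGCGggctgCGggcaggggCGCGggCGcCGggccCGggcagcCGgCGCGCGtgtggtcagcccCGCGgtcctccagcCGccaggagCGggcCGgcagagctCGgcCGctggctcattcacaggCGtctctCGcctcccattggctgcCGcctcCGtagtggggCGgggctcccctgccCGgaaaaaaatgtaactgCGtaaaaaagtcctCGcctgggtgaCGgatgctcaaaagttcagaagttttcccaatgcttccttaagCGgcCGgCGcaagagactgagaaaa
They hold 15, 26 and 32 CG pairs, against a median of 7 over 32851 promoters of the same length. Entries were found for 6 of the 9 members, the others being Foxf1, Foxl1 and Foxc2. The Gli consensus GACCACCCA and the forkhead consensus GTAAACA were searched on both strands and matched in 0 of the promoters of these 6. The share of all promoters with a match was 0.253% for the Gli letters and 3.65% for the forkhead letters, so no match says only that these letters are not in these windows.

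Beside the forkhead genes, 20 Hedgehog pathway and target genes were followed, of which 19 were tested. At P20, 4 were higher in Smo* and 0 lower, among them Hhip, which captures Hedgehog ligands at the cell surface (3.53), the receptor Ptch1 (2.87) and the transcription factor Gli1 (1.63), with a list median of 0.21 against 0.00 over all genes. At P28, 7 were higher and 1 lower, with a list median of 0.32 against -0.01 over all genes. Among those with the lowest adjusted p were Gli1 (1.52), Ptch1 (1.51) and Cdon, a co-receptor (1.27). The log2 fold changes of Foxd1 and Foxd2 at P28 were above each of these 3. At P20 those of Hhip and Ptch1 were above both Foxd2 (2.72) and Foxd1 (1.40). Hhip was not among the genes called at P28, with 30588 ± 20379 normalized counts in Smo* and 40696 ± 3544 in WT. Its Smo* over WT value was lower at P28 than at P20 by 4.26 on the log2 scale (limma adjusted p = 0.00359).

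Within WT papilla the Hedgehog list moved in both directions between the ages, with 4 of 19 genes higher at P28, 7 lower and a median of 0.05. Hhip averaged 40696 ± 3544 normalized counts in P28 WT and 1229 ± 262 in P20 WT, and Ptch1 averaged 16005 ± 2206 in P28 WT and 4324 ± 1670.1 in P20 WT (log2 fold changes 5.06 and 1.97, limma adjusted p = 1.58e-05 and 0.00212). Gli1 averaged 1487 ± 93.0 in P28 WT and 1515 ± 645 in P20 WT (0.05, limma adjusted p = 0.891). Mycn, Ccnd2, Cdon, Gas1, Bmp4, Osr1 and Bcl2 fell, by 0.60 to 2.90. Foxd1 fell over the same interval, by 1.25, and Foxd2 had a value of 0.42 (limma adjusted p = 0.438).

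Markers of blood endothelium moved with the genotype at P28. None of the 6 markers was at 0 in all libraries of a group, and their summed level was 1628 to 1996 normalized counts in P20 Smo* and 657 to 1775 in P20 WT, and 1804 to 3489 in P28 Smo* and 582 to 1054 in P28 WT. At P28, 2 of 6 rose, Cdh5 (log2 fold change 4.37, limma adjusted p = 0.00125) and Pecam1 (1.53, limma adjusted p = 0.0146), while Kdr averaged 560 in Smo* and 546 in WT. At P20 limma called 0 (3 at an unadjusted p under 0.05, 0 by edgeR and 1 by DESeq2). The markers went both ways there, with 3 of 6 above 0 and a median log2 fold change of -0.57. Cdh5 averaged 685 in P20 Smo* and 230 in P20 WT, and Kdr 972 and 501. Pecam1 averaged 104 in P20 Smo* and 308 in P20 WT, Tie1 24.2 and 74.9, and Emcn 7.01 and 34.8. Among the P28 Smo* libraries replicate 1 had the highest sum, 3489, and replicate 2 the lowest, 1804. The same order held for Foxd1, Foxf1, Foxl1, Foxc1 and Foxo1 but not for Foxd2, Foxf2, Foxc2 or Foxp1. The share of all genes with this order of 3 libraries was not counted, so the order links no member to endothelial content. For Foxo1 it rests on 3268 in replicate 3 and 3254 in replicate 2, and Foxo1 and Foxl1 were not called at P28. Cdh5 alone gave 2271 normalized counts of the sum in replicate 1 and 1126 in replicate 2. Lymphatic markers summed to 221 to 314 in P28 Smo* and 186 to 221 in P28 WT, with Ccl21a at 0 in all P28 Smo* libraries, and pericyte markers to 10246 to 12496 in P28 Smo* and 10713 to 12253 in P28 WT. Of the 5 pericyte markers limma called 1, Rgs5, lower in P28 Smo* (-0.65, limma adjusted p = 0.0424), and DESeq2 called 2. The part of endothelial cells and pericytes in the values of the members was not tested.

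Over the 12 libraries, on log2(value + 1) and among 11923 coding genes with a mean of at least 50, the gene most like Foxd1 was Shisa3 (Pearson r = 0.984), followed by Zbtb7c (0.948). For Foxd2 they were Ripor2 (0.983) and Galnt18 (0.972). Shisa3 averaged 486 normalized counts in P20 Smo* and 87.9 in P20 WT, and 913 in P28 Smo* and 33.5 in P28 WT. Bdkrb2 was among the 2 genes most like Foxf1 (0.946). Foxl1 was most like Bdkrb2 (0.914) and C2 (0.894), Foxc1 like Pthlh (0.977) and Cldn1 (0.955), and Foxc2 like Mycl (0.917) and Pear1 (0.916). Foxf2 was nearest to Nbl1 (0.897) and Cav2 (0.893) and Foxo1 to Sgk1 (0.939) and Klhl21 (0.925), and Sirt2 was among the 2 nearest to Foxp1 (0.951). These values describe 12 libraries that share 4 group means. With the group means removed, r was 0.785 for Foxd1 and Shisa3, 0.803 for Foxd2 and Ripor2, and 0.920 for Foxc1 and Pthlh. It fell further for other pairs, to 0.362 for Foxd1 and Zbtb7c, 0.561 for Foxc2 and Mycl, and 0.508 for Foxc2 and Pear1. For Foxd1 and Foxd2, which had 0.832 before, it was -0.03.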

How the data were processed

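RNA was sequenced from FACS-sorted dermal papilla cells in 12 libraries, 3 in each of 4 groups. The deposited signal values are gene counts divided by a size factor per library, here called normalized counts, and the authors normalized all 12 libraries together. The builds GRCm38.p4 and mm10 and the tools HTSeq, DESeq2, TopHat2 and Trimmomatic are listed, without roles, per the submitters' processing notes. The authors' deposited log2 fold changes are WT over Smo* and were turned round; the deposited test statistic is a score and was not used further. The deposited p-values and adjusted p-values were copied as they stand. Dividing by what 1 read is worth gave whole reads for 100% of values (within 0.01), or 36323058 to 48926831 reads per library.

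Values were tested as log2(value + 1), which understates changes of low genes, with limma 3.58.1 (variance trend, Benjamini-Hochberg, threshold 0.05, R 4.3.3) in genes with a mean of at least 10. Smo* and WT were compared in the 6 libraries of each age. The comparisons of P28 with P20 and the difference between ages used 1 fit of 12 libraries. All p-values were adjusted over every gene tested. Alternatives were other pseudocounts and filters, TMM and quantile scaling, no variance trend, edgeR 4.0.16 and DESeq2 1.42.0 on the recovered reads, the authors' table, and each library left out. The scripts were tested on simulated data. Confidence intervals of read counts cover counting error only.

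Genes were named and placed with GENCODE M21 (GRCm38), which matched 99.0% of identifiers. The members and gene lists were chosen with earlier results of these data known. The text names all members, at most 4 called genes of a list by adjusted p, the nearest coding gene on each side, and the 2 genes most like each member. Smo and single markers are named beside these where they bear on a member. A few genes and sequences that these rules select are not reported here.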

Additional observations from a re-analysis of the deposited data

Results flagged for a closer look

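The difference between Smo* and WT papilla was larger at P28 than at P20 for Foxd1, by 1.72 on the log2 scale (SE 0.30, limma adjusted p = 0.00857). It drew attention because the difference between the ages was itself tested and passed. All 3 Smo* libraries lay above all 3 WT libraries at each age. P28 over P20 was -1.25 in WT (limma adjusted p = 0.00132) and 0.47 in Smo* (limma adjusted p = 0.214). Age, sex and the labelled hair cycle stage differ together between the ages. Genotype and stage also differ together at P28, with anagen I-III in Smo* and anagen VI in WT, while both are telogen at P20. The parts of genotype, age, sex and stage in this difference cannot be told apart.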

How the results depend on the processing

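Over the 9 members and 5 comparisons, 699 of 768 values under an alternative kept their direction and side of the threshold, 31 lost the call, 8 gained one and 30 took the other sign. None of those 30 was called, with or without the alternative. They belong to 9 results that were not called. With 1 library left out, Foxp1 ran from -0.13 to 0.13 at P20, from -0.27 to 0.13 at P28 and from -0.25 to 0.15 for the difference between ages, and Foxd2 from -0.27 to 0.39 for that difference. Likewise, P28 over P20 ran in WT from -0.35 to 0.19 for Foxl1, -0.29 to 0.25 for Foxc1 and -0.49 to 0.12 for Foxc2, and in Smo* from -1.72 to 0.80 for Foxf2 and -0.059 to 0.18 for Foxo1. The sign also turned for Foxc1 in WT under quantile scaling (-0.15) and for Foxf2 in Smo* by edgeR (0.16) and DESeq2 (0.18). For Foxd2 it turned in the difference under TMM scaling (-0.0042), edgeR (-0.042) and DESeq2 (-0.024). The P28 calls of Foxd1 and Foxd2, the WT stage call of Foxd1 and the Foxd1 difference between ages held under every alternative run. Without the variance trend limma called 0 members at P20 (2 with it), and without the filter 1 in the WT stage comparison (3 with it), while DESeq2 called 2 for the difference between ages (limma 1). Leaving out 1 library gave 0 to 2 members at P20, 3 to 5 at P28, 1 to 2 in the WT stage comparison and 1 to 2 for the difference. Over all genes at P20 limma called 102, against 9 without the trend, 480 by DESeq2, 342 in the authors' table and 8 to 129 with 1 library left out. At P28 it called 1313, against 638, 2312, 2880 and 461 to 1619 in the same order, and 2058 in the 12-library fit. For P28 over P20 in WT it called 3761, and 2336 to 3139 with 1 library left out. For P28 over P20 in Smo* it called 511, against 225 without the trend, 1615 by DESeq2, 69 with the 6 Smo* libraries alone and 49 to 1049 with 1 library left out. The 49 and 1049 were without P28 Smo* replicate 1 and replicate 3. For the difference it called 698, against 384 without the trend, 1482 by DESeq2 and 254 to 922 with 1 library left out. The cause of these shifts was not tested. Foxl1 at P20 without Smo* replicate 1, and Foxf2 at P28 without Smo* replicate 3, fell below the filter. No paired analysis was possible because the groups share no replicate numbers in the labels: each library's title holds a different number, of unstated meaning. Depth limits Foxl1, Foxf2 and the WT values of Foxf1.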

Other observations

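Among the 35 other forkhead genes in the tables, 15 were tested. In WT papilla 1 of them rose at P28 over P20 and 6 fell, where 13.5% of all tested genes rose and 11.9% fell, with a median log2 fold change of -0.29 against -0.01 over all genes. Foxs1 averaged 238 ± 67.6 normalized counts in P28 WT and 101 ± 51.2 in P20 WT (log2 fold change 1.32, limma adjusted p = 0.0321). The falls with the lowest adjusted p were those of Foxn2 (-0.88), Foxo6 (-1.26) and Foxp2 (-1.14). Between Smo* and WT, limma called 1 of the 15 at P28, near the 8.9% it called over all genes. At an unadjusted p under 0.05 there were 4, and edgeR called 2 and DESeq2 4. The gene limma called was Foxp4, at 1364 ± 236 in Smo* and 899 ± 43.2 in WT (0.59, limma adjusted p = 0.0446). At P20 limma called 0 (1 at an unadjusted p under 0.05, and 0 by edgeR and by DESeq2).

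Of 16 genes known as Foxo1 targets in other tissues, limma called 0 at P20 between Smo* and WT (6 at an unadjusted p under 0.05, and 0 by edgeR and by DESeq2), with 5 of 16 above 0 and a median log2 fold change of -0.41 against 0.00 over all genes. At P28 it called 1, again near the 8.9% over all genes (3 at an unadjusted p under 0.05, 1 by edgeR and 3 by DESeq2). The list median was -0.00136 against -0.01. The gene limma called was Cat, which encodes catalase, an enzyme that breaks down hydrogen peroxide. Cat averaged 1976 ± 4.51 normalized counts in P28 Smo* and 5529 ± 754 in P28 WT (log2 fold change -1.48, limma adjusted p = 0.000518). In WT papilla 2 of the 16 rose at P28 over P20, among them Cat (1.66), and 4 fell, among them Sod2, a mitochondrial superoxide dismutase (-0.95), and Irs2, an insulin receptor adaptor (-1.53). The 2 of 16 lie near the 13.5% of all genes that rose, and 11.9% fell. Foxo1 RNA levels do not report the protein's place in the cell.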
